A study of Mus musculus with 4 samples.

Results

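Nuclear-encoded oxidative phosphorylation genes were examined in spatial transcriptomics data of mouse dorsal skin. They were chosen by name alone: symbols beginning with Nduf, Uqcr or Atp5, the cytochrome c oxidase genes Cox4 to Cox8 followed by a letter or i, Sdha to Sdhd, and Cyc1. The rule found 94 genes among the 32286 measured. By complex these were 36 of complex I, 4 of complex II, 9 of complex III, 20 of complex IV, 17 of complex V and 8 assembly factors of complex I. The data came from 4 slices (Visium capture areas) of skin from 3 mice of genotype Krox20-CreERT; R26-tdTomato, given 4-hydroxytamoxifen at postnatal day 2 and collected at postnatal day 38. CreERT is made where Krox20 is, mainly in the hair follicle, and R26-tdTomato is the recombination reporter. All samples carried both alleles and the drug, so no untreated or wild-type skin entered the comparisons. Each slice held a section of every mouse, so the 4 slices are repeats on the same animals and the errors below do not cover differences between mice.

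Oxidative phosphorylation passes electrons from NADH and succinate through complexes I to IV to oxygen, and complex V (ATP synthase) uses the resulting proton gradient to make ATP. Most subunits are encoded in the nucleus and the rest in mitochondrial DNA (mtDNA), and complex II is wholly nuclear-encoded. Cytochrome c oxidase, complex IV, has subunits with a tissue isoform: Cox6a2, Cox7a1 and Cox8b are known from striated muscle, Cox4i2 from lung, Cox6b2 and Cox8c from testis, and Ndufa4l2 is a paralog of the complex IV subunit Ndufa4 known to respond to hypoxia.

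A Visium spot is a small region that can hold several cells. The files held 6420 spots and 91815705 unique molecular identifiers (UMIs, counted RNA molecules), with 19393026 to 26910422 UMIs per slice, of which the 94 genes took 2.78% to 3.11%. Spots were placed in 10 compartments by marker genes that include none of the 94, using the top 10% of spots by marker score in each slice, which gave 77 to 155 spots and 758561 to 3726805 UMIs per slice and compartment. Of the 4563 spots placed, 1548 were also in the top 10% for another marker list. These were most of the mural cell spots (216 of 355) and of the dermal fibroblast spots (192 of 344). They were least common in hair matrix (69 of 562) and skeletal muscle (102 of 531). All 10 skeletal muscle markers were highest in muscle spots, as were 6 or 7 markers of each other list in their own compartment, with 1 exception each in the epidermis, inner root sheath and hair matrix lists. The same markers placed the spots, so these counts are no independent check of the compartments. Levels are CPM, the UMIs of a gene per 1000000 UMIs of the same spots, given as mean ± SD over slices (n = 4). In such sums, more cells of a type and more RNA per cell cannot be told apart.

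Promoter sequence of the isoform pairs of complex IV is shown because these pairs separate muscle from the rest of the skin. Entries were found for 75 of the 94 genes, and Cox6a2 had none. Each sequence is the 250 bases before the start of transcription, on the gene's strand, from RefSeq on GRCm38.p6, with capitals marking an E-box (CANNTG), the NRF1 core TGCGCA or the ETS core CCGGAAG on either strand.
Cox7a1, chr7:30183921-30184170, plus strand: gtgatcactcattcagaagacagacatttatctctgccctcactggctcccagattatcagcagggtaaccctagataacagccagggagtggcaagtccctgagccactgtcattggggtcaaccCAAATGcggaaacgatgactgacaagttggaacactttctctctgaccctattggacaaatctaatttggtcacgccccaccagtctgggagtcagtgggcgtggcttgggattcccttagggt
Cox8b, chr7:140900447-140900696, minus strand: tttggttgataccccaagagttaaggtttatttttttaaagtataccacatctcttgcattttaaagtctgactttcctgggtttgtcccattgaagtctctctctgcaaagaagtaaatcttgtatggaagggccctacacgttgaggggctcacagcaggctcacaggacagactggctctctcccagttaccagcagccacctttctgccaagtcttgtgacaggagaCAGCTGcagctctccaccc
Cox7a2, chr9:79759854-79760103, minus strand: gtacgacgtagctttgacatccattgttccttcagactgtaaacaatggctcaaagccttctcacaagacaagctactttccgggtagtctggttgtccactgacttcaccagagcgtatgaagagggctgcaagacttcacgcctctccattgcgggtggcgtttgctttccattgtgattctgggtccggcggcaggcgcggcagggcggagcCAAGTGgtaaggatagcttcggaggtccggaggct
Cox8a, chr19:7217617-7217866, minus strand: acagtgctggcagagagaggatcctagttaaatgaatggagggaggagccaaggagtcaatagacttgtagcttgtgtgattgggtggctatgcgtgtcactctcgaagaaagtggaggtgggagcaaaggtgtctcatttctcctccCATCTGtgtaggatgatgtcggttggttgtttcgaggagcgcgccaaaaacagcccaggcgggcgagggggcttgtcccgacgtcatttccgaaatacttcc
Cox6a1, chr5:115348959-115349208, minus strand: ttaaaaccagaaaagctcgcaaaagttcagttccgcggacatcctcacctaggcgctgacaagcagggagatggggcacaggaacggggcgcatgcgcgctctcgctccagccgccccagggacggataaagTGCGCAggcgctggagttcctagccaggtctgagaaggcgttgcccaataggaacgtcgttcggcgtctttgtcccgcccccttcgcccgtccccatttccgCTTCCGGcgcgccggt
The muscle isoforms Cox7a1 and Cox8b each held 1 E-box, at -124 and -19 from the start. Their common partners Cox7a2 and Cox8a also held 1 each, at -35 and -102, while Cox6a1 held TGCGCA at -118 and the reverse complement of CCGGAAG at -16. Over 80 promoters of the genes, an E-box was found in 62.5%, against 66.2% of 32851 mouse promoters of the same length. TGCGCA, a core of the site of the factor NRF1, was found in 18.8% against 6.43%, and CCGGAAG, a core of ETS factors, in 17.5% against 6.91%. AAGGTCA, bound by ERR receptors, was found in 6.25% against 4.08%, and TATAAA in 10% against 12.4%. These matches describe letters and not binding.

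In skeletal muscle spots nearly every measured gene of the set was higher than in the other 9 compartments. Of 92 genes tested, 84 were higher and 2 lower in edgeR's quasi-likelihood test at an adjusted p below 0.05, against 24.7% higher and 23.9% lower of all 11608 genes tested. The median log2 fold change was 0.80, against -0.01 for all genes, and 25 genes were higher by a fold of at least 2, which 6.39% of all genes were. For 59 genes every muscle slice lay above every slice of every other compartment, which held for 4.12% of genes with at least 400 UMIs. Summed over the set, the level was 44567, 45767, 41699 and 43199 CPM in the 4 muscle slices. Hair matrix came next with a mean of 33078 CPM, and interfollicular epidermis was lowest with 22554 CPM, so that muscle slices overlapped with none of the others. The 2 genes left untested were Cox7b2, with 0 UMIs (which allows up to 0.0327 CPM), and Cox8c, with 2 UMIs in all spots.

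**Figure D1:**
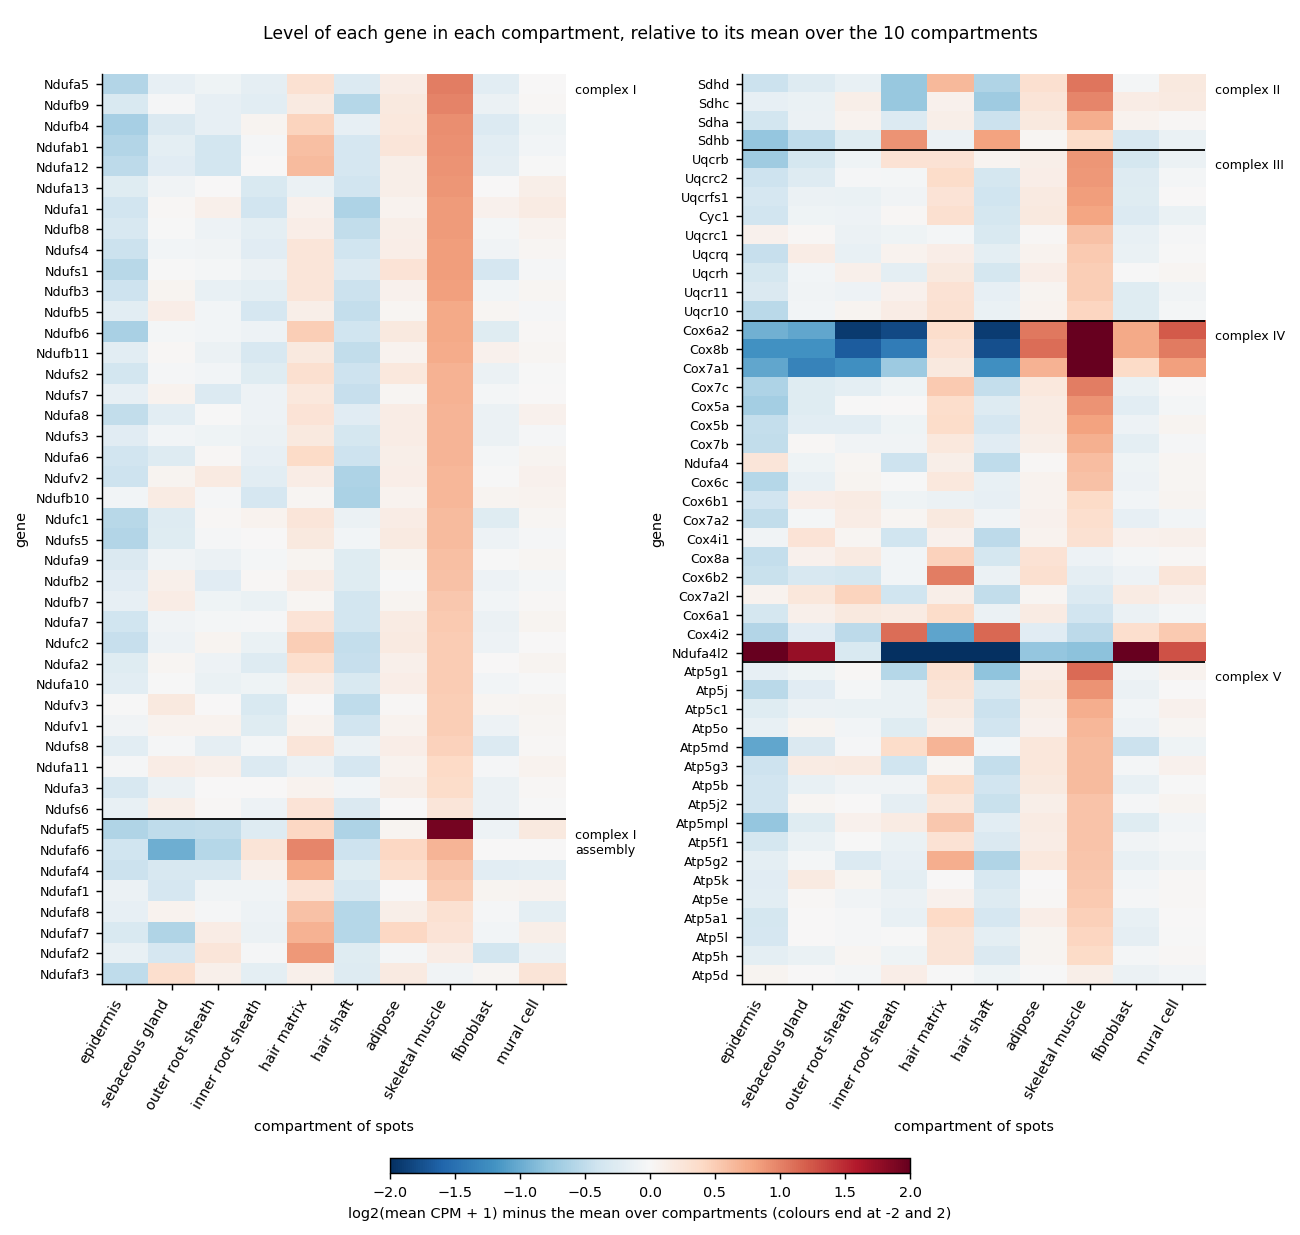
Level of each gene with at least 1 CPM in some compartment, as log2(mean CPM + 1) minus its mean over the 10 compartments, with genes grouped by complex. The skeletal muscle column is the reddest for most genes, 75 of the 92 being highest there, while Ndufa4l2, Cox4i2, Cox6b2 and Cox7a2l of complex IV and Sdhb of complex II have other patterns.

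All 36 complex I genes, which build the NADH dehydrogenase, were higher in muscle, with a median log2 fold change of 0.86. Ndufa5, an accessory subunit of its matrix arm, had the largest difference. It was at 311, 371, 345 and 385 CPM in muscle slices and at 108 to 233 CPM in all other slices, a log2 fold change of 1.26 ± 0.07 (SE, edgeR adjusted p = 2.0e-22). Ndufs6, a subunit near the NADH-binding module, had the smallest, at 431, 451, 398 and 372 CPM in muscle and 263 to 449 CPM elsewhere, a log2 fold change of 0.39 ± 0.08 (edgeR adjusted p = 3.5e-05). The Ndufs6 slices overlapped with those of hair matrix, whose mean was 422 CPM, whereas the Ndufa5 slices stood clear of all others.

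Among the 8 complex I assembly factors, which help build the complex and are not part of it, 6 were higher. Ndufaf5 stood out and was chosen for mention after its values were seen. It was at 56.7, 51.7, 54.8 and 45.0 CPM in muscle and 3.4 to 22.6 CPM in other slices, a log2 fold change of 2.34 ± 0.12 (edgeR adjusted p = 4.2e-23). No other gene outside the muscle isoforms of complex IV had a log2 fold change above 1.37. Ndufaf5 lies at chr2:140170649-140203689 on the plus strand of GRCm38, the assembly behind mm10. The genes Ndufaf2 and Ndufaf3 did not pass the test (log2 fold changes 0.28 and 0.03).

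The 4 genes of complex II, succinate dehydrogenase, were all higher in muscle. Sdhd, a membrane anchor, was at 36.6, 31.0, 35.7 and 32.5 CPM, above every other slice (6.46 to 28.9 CPM), with a log2 fold change of 1.36 ± 0.13 (edgeR adjusted p = 1.1e-12). Sdhb, the iron-sulfur subunit, had the smallest change of the complex, 0.51 ± 0.09 (edgeR adjusted p = 6.6e-06). It was the exception in where it was highest, as given below for the inner root sheath.

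All 9 genes of complex III, which passes electrons to cytochrome c, were higher, with a median log2 fold change of 0.76. Uqcrb, a small subunit, was at 497, 548, 483 and 549 CPM in muscle and at 156 to 374 CPM elsewhere, and its log2 fold change of 1.10 ± 0.07 was the largest (edgeR adjusted p = 9.4e-18). Uqcr10, the smallest change at 0.59 ± 0.12 (edgeR adjusted p = 5.2e-05), was at 690 to 829 CPM in muscle and overlapped with hair matrix, in which it averaged 672 CPM.

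All 17 genes of complex V were higher, with a median log2 fold change of 0.73. Atp5g1, a gene for the c subunit of the rotor, was at 654, 614, 565 and 588 CPM in muscle against 144 to 366 CPM in all other slices, a log2 fold change of 1.37 ± 0.07 (edgeR adjusted p = 4.9e-23). Atp5d, the delta subunit of the F1 part, was nearly level across the skin, at 540 to 564 CPM in muscle and 419 to 597 CPM elsewhere. Its log2 fold change of 0.23 ± 0.08 (edgeR adjusted p = 0.012) lost its call without slice 3 (adjusted p = 0.0533), without slice 4 (0.0506), with clusters of spots (0.392) and with library size alone as the scale (0.115).

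Complex IV was the only complex in which genes went both ways: 12 of 18 tested were higher and 2 lower. Its 3 muscle isoforms had the largest log2 fold changes of the whole set. Cox6a2 (chr7:128205435-128206387, minus strand) was at 1004, 1063, 875 and 1076 CPM in muscle slices, while no other slice passed 149.6 CPM. Its log2 fold change was 4.81 ± 0.09 (edgeR adjusted p = 4.5e-41). Cox8b (chr7:140898945-140900446, minus strand) was at 480, 740, 620 and 700 CPM against at most 97.5 CPM, a log2 fold change of 4.68 ± 0.09 (edgeR adjusted p = 1.2e-40). Cox7a1 (chr7:30184144-30186078, plus strand) was at 400, 457, 408 and 470 CPM against at most 85.1 CPM, a log2 fold change of 4.01 ± 0.07 (edgeR adjusted p = 1.3e-41). For each of these genes the muscle slices were far from all the others, and the promoters of Cox7a1 and Cox8b are among those printed above.

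Their common partners did not move together. Cox6a1 (chr5:115345642-115348981, minus strand), the widespread form of subunit 6a, was at 411, 384, 379 and 362 CPM in muscle and 335 to 710 CPM elsewhere. It was lowest in muscle on average and its log2 fold change was -0.32 ± 0.10 (edgeR adjusted p = 0.0086), a call lost without slice 2 (adjusted p = 0.0626). Cox7a2 was at 601 to 788 CPM in muscle and was higher, by 0.47 ± 0.12 (edgeR adjusted p = 0.00075). Cox8a was at 400 to 577 CPM in muscle and 318 to 781 CPM elsewhere, with a log2 fold change of -0.01 ± 0.12 (edgeR adjusted p = 0.959). For each pair the summed level of both isoforms was nevertheless above the mean of the other compartments in 4 of 4 slices, by 2.42-fold for Cox6a, 1.97-fold for Cox7a and 1.99-fold for Cox8.

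The share of a pair's UMIs that fell to the tissue isoform does not depend on the total of the spots. In muscle, Cox6a2 took 71.0%, 73.5%, 69.8% and 74.8% of Cox6a UMIs in slices 1 to 4, mean 72.3% ± 2.30. The next compartment, mural cell spots, had 20.8%, and the difference was 51.5 ± 2.06 percentage points. Cox8b took 45.4%, 59.6%, 60.8% and 63.1% of Cox8a and Cox8b UMIs, mean 57.2% ± 8.0, against 13.1% in mural cell spots. Cox7a1 took 33.7%, 38%, 40.5% and 41.9% of Cox7a UMIs, mean 38.5%, against 11.3% in mural cell spots. In each pair all muscle slices lay above all others, and slice 1 was the lowest muscle slice for Cox8b and Cox7a1. With 4 slices the exact two-sided sign-flip permutation test cannot give a p under 0.13 (1 in 8), which is what each of these differences gave. Under 11 other settings the muscle means ran from 65.5% to 78.6% for Cox6a2, from 50% to 63.7% for Cox8b and from 34.9% to 41.4% for Cox7a1. The same was seen outside the set for the ADP/ATP carriers, where Slc25a4, the carrier of heart and muscle, took 69.0% of Slc25a4 and Slc25a5 UMIs in muscle and 33.6% in mural cell spots.

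**Figure D2:**
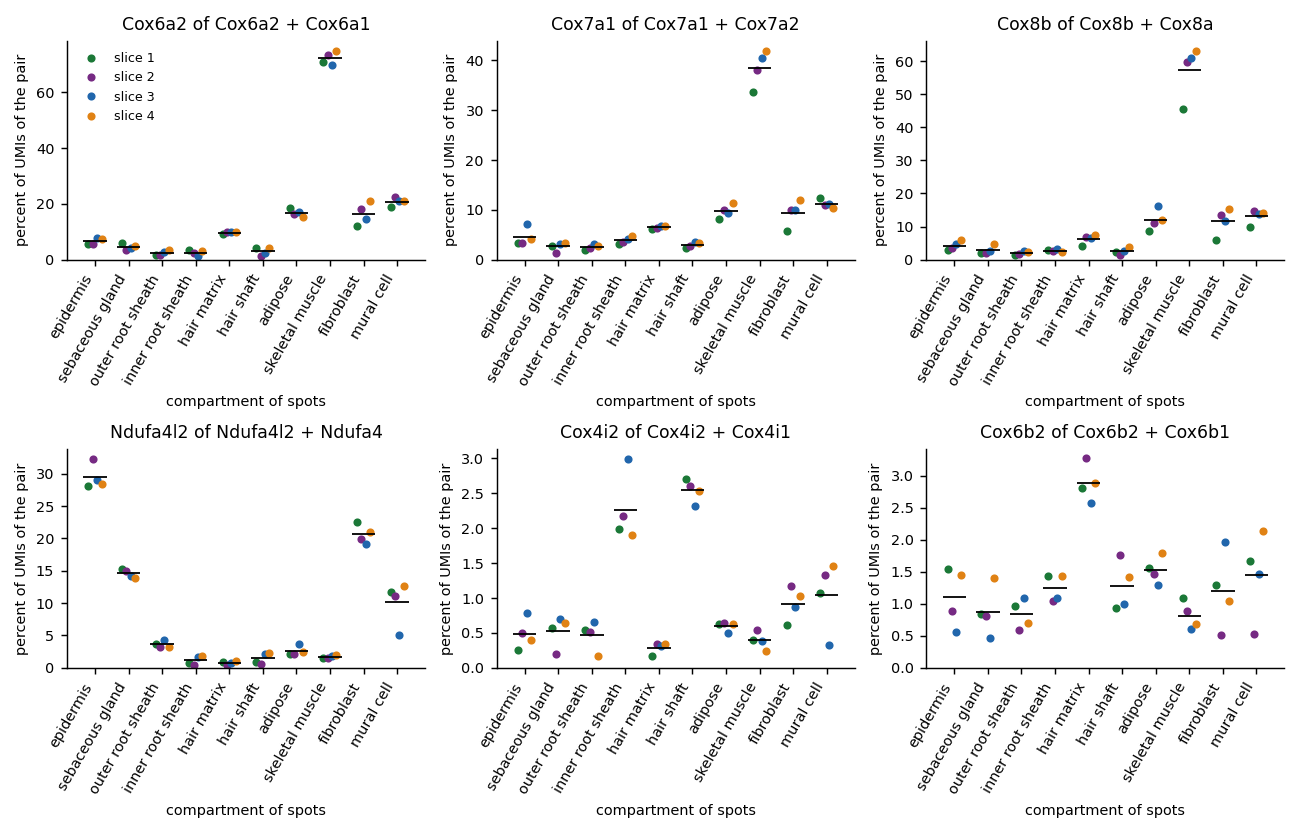
Percent of the UMIs of an isoform pair that fell to the named tissue isoform, by compartment, with a point per slice and a black line at the mean of 4 slices. Cox6a2, Cox8b and Cox7a1 are highest in skeletal muscle (means 72.3%, 57.2% and 38.5%), and Ndufa4l2 in epidermis (29.5%).

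Outside muscle, Cox6a2 and Cox8b were near the muscle markers in their percent of the muscle level, and Cox7a1 lay above them. The muscle markers shown, Acta1 among them, also served to place the muscle spots. Spots 1 grid step from the nearest muscle spot held Cox6a2 at 20.1% of its muscle level, Cox8b at 19.9%, Cox7a1 at 24.9% and the muscle actin Acta1 at 21%. At 2 steps Cox6a2 was at 3.14%, Cox8b at 3.43%, Cox7a1 at 5.84% and Acta1 at 3.59%. From 3 steps on, Cox6a2 stayed between 1.69% and 2.09%. Cox7a1 was at 4.81% at 3 steps and 4.09% at 6 steps, where Acta1 was at 2.61% and 2.30%. The widespread isoform Cox6a1 went the other way, at 153% and 157% of its muscle level at 1 and 2 steps. By compartment, Cox6a2 was at 12.7% of its muscle level in mural cell spots and at 11.3% in adipose spots, where Acta1 was at 13.9% and 12.9%. In hair matrix Cox6a2 was at 6.90% and Acta1 at 7.61%. In inner and outer root sheath Cox7a1 was at 5.24% and 3.66%, and Acta1 at 1.78% and 1.83%. Against only those spots of the other compartments that lay at least 3 steps from muscle, the muscle log2 fold changes were larger, 5.84 for Cox6a2, 5.50 for Cox8b and 4.69 for Cox7a1.

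**Figure D3:**
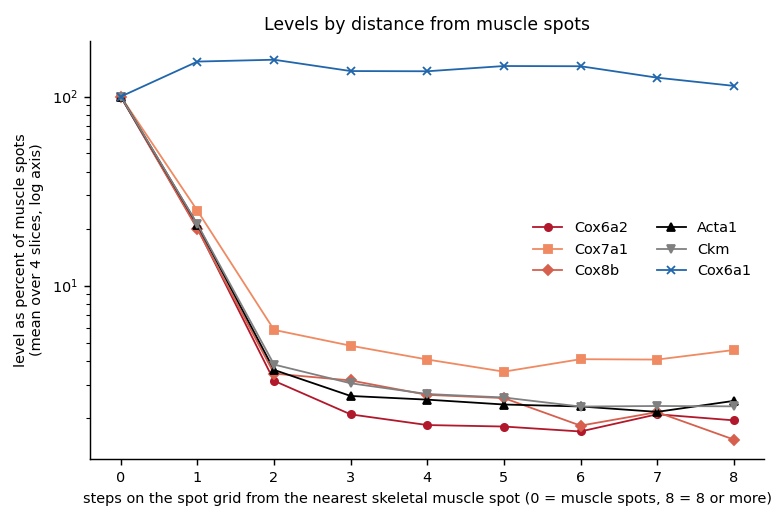
Level of Cox6a2, Cox7a1, Cox8b, Cox6a1 and muscle markers as percent of their level in muscle spots, on a log axis, by distance in grid steps from muscle spots (mean of 4 slices, last point 8 steps or more). At 1 step the muscle isoforms are at 19.9% to 24.9% and Acta1 at 21%, and from 2 steps on Cox7a1 lies above the other isoforms and Acta1, while Cox6a1 lies above 100% at every step outside muscle.

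The remaining tissue isoforms of complex IV were low in muscle. Ndufa4l2 (chr10:127514967-127517154, plus strand) was at 17.0, 17.4, 18.1 and 20.5 CPM there, with a log2 fold change of -0.80 ± 0.18 (edgeR adjusted p = 0.00023), whereas its paralog Ndufa4 was higher by 0.80. Cox4i2 (-0.51 ± 0.26, edgeR adjusted p = 0.103) and Cox6b2 (-0.12, adjusted p = 0.698) did not pass the test, while their common forms Cox4i1 and Cox6b1 were higher by 0.45 and 0.54. The subunit Cox7b was higher by 0.90. Cox7a2l, which is known to help join complexes III and IV and was chosen after its values were seen, was at 193 to 256 CPM in muscle. Its log2 fold change of -0.19 ± 0.10 was not called (edgeR adjusted p = 0.102), but was called lower with the slice as a block (0.0017) and with library size alone as the scale (0.0028). It was highest in outer root sheath, at a mean of 355 CPM, and lowest in hair shaft.

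The summed levels of all 5 complexes were above the other compartments in muscle. The log2 ratio of muscle to the mean of the other compartments was taken within a slice and is given as the mean and range over slices. It was 0.73 (0.65 to 0.78) for complex I, 0.58 (0.48 to 0.66) for complex II and 0.63 (0.60 to 0.72) for complex III. For complex IV it was 0.76 (0.69 to 0.88) and for complex V 0.62 (0.57 to 0.69). All were above 0 in 4 of 4 slices, and without Cox6a2, Cox7a1 and Cox8b the ratio of complex IV was 0.49 (0.45 to 0.59). Among the 10 pairs of complexes, I and IV lay above V in 4 of 4 slices, by 0.10 ± 0.03 and 0.13 ± 0.04, and IV lay above II by 0.18 ± 0.05. Complexes I and IV differed by 0.03 ± 0.06, with 1 slice going the other way. The exact sign-flip permutation test had its smallest possible p of 0.13 in each of the former and 0.375 in the latter, so none passes a threshold of 0.05 before or after adjustment over the pairs. As shares of the UMIs of the set, the complexes were close to fixed across compartments: complex I took 25.2% to 26.6%, complex III 11.7% to 13.6%, complex IV 23.5% to 26% and complex V 33.5% to 35.8%. Complex II ranged more widely, from 1.59% in sebaceous gland to 2.87% in inner root sheath and 3.13% in hair shaft. Sums and shares follow the most abundant genes. In complex II, Sdhb held 33040 UMIs over all spots, Sdha 12737, Sdhc 7840 and Sdhd 1591. By gene, the median log2 fold change in muscle was 1.06 for complex II and 0.65 for complex IV, the reverse of their summed order.

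Other genes of energy metabolism were compared in the same test, against the same 24.7% of all genes higher and 23.9% lower. All 13 mtDNA-encoded subunits were higher in muscle, with a median log2 fold change of 1.35, from 0.96 for mt-Atp6 to 1.98 for mt-Atp8. So were 13 of 13 citric acid cycle genes (median 0.86), among them the citrate synthase Cs at 0.44 and Idh3a, a subunit of isocitrate dehydrogenase, at 1.32. Of 4 carrier genes 3 were higher, among them cytochrome c, Cycs, at 1.51 and Slc25a4 at 2.88, while Slc25a5 was at 0.03 and not called. Of 29 tested assembly genes of 30, 19 were higher and 1, Acad9, was lower (-0.77), with Sdhaf4 (1.14) and Uqcc1 (1.05) the largest, and Sco1 at -0.46 not called. Of 6 tested regulators of mitochondrial biogenesis of 8, Tfb2m (1.00) and Tfam (0.69) were higher, and Esrra (-0.01) and Nrf1 (0.06) were not called. Glycolysis split by isoform, with 12 of 18 genes higher and 5 lower: Pgam2 and Eno3, the muscle forms, were at 4.42 and 4.41, and Pfkp and Hk1 at -1.37 and -1.15.

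The mtDNA-encoded and nuclear-encoded subunits did not keep a fixed ratio. UMIs of the 13 mtDNA-encoded subunits over those of the 94 genes gave 1.63, 1.97, 2.02 and 2.43 in muscle slices 1 to 4, mean 2.01 ± 0.33. Epidermis was close to it, with 1.47, 2.14, 2.25 and 2.47, mean 2.08 ± 0.43. So were dermal fibroblast spots (mean 1.97), sebaceous gland (1.93) and mural cell spots (1.81). Hair matrix was lowest, with 0.786, 0.912, 1.01 and 1.32, mean 1.01 ± 0.23. Slice 1 was the lowest and slice 4 the highest in all 10 compartments, so that compartments are better compared within a slice. There the ratio was above the mean of the other compartments in muscle in 4 of 4 slices (log2 0.33 ± 0.09), and in epidermis above the mean of the other 8 non-muscle compartments (log2 0.42 ± 0.09). So was the ratio in dermal fibroblast spots (0.34), sebaceous gland (0.30) and mural cell spots (0.20), each in 4 of 4 slices. In hair matrix the ratio was below the mean of the other 8 non-muscle compartments in 4 of 4 slices (log2 -0.75 ± 0.10). Each gave the smallest exact sign-flip permutation p, 0.13, and the muscle value ran from 0.29 to 0.38 over the other settings. In all slices together mtDNA genes took 3.44% of UMIs in slice 1 and 5.22% in slice 4, and the part of that difference in the ratios was not tested.

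**Figure D4:**
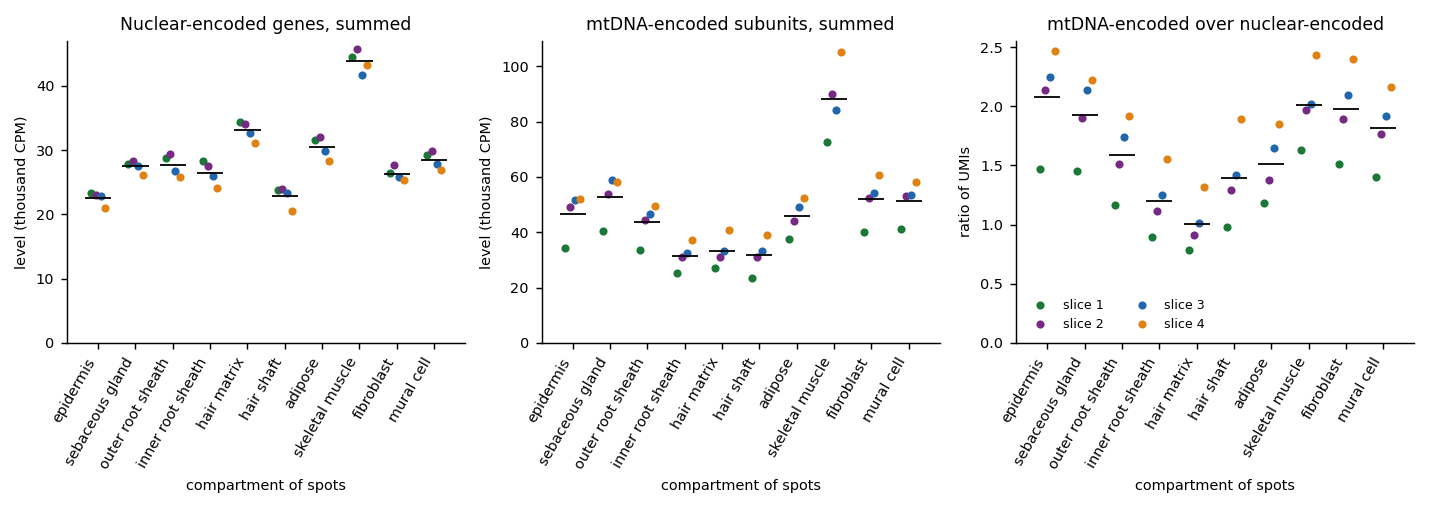
Summed level of the nuclear-encoded genes and of the 13 mtDNA-encoded subunits in units of 1000 CPM, and the ratio of their UMIs, by compartment, with a point per slice and a black line at the mean. Skeletal muscle is highest in both sums, whereas hair matrix is second in the nuclear-encoded sum and has the lowest ratio, 1.01.

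Outside muscle, the hair matrix, the growing base of the follicle, had the most genes higher. Each non-muscle compartment was compared with the mean of the other 8, muscle left out. In hair matrix 69 of 92 genes were higher and 2 lower, against 37.3% and 36.5% of all genes, with a median log2 fold change of 0.31 against 0.02 for all genes. All complexes took part: 28 of 36 genes of complex I, 3 of 4 of complex II, 7 of 9 of complex III, 11 of 18 of complex IV, 13 of 17 of complex V and 7 of 8 assembly factors, whose median was 0.77. The 13 mtDNA-encoded subunits were all lower there (median -0.51), while 23 of 29 assembly genes of the respiratory chain were higher. Hair matrix spots had the most UMIs per spot, a median of 23262 against 8273 in epidermis, and the part of depth in these calls was not tested. Among hair matrix spots at least 3 steps from muscle spots, 32 genes were higher and 1 lower (19.9% of all genes higher). With all spots and the slice as a block 74 were higher and 5 lower. The hair matrix spots at least 3 steps from muscle numbered 11 to 26 per slice. Among them the muscle isoforms were called higher, Cox6a2 by 1.56, Cox8b by 1.22 and Cox7a1 by 0.98 (edgeR adjusted p = 7.2e-06, 0.00025 and 6.8e-05). Over all hair matrix spots Cox6a2 was at 6.90% of its muscle level, Cox8b at 7.12%, Cox7a1 at 10.2% and Acta1 at 7.61%. Muscle marker levels in the distant spots alone are not given, and the part of muscle RNA in these calls was not tested.

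The largest differences in hair matrix were in low genes. Ndufaf6, an assembly factor, was at 13.2, 12.9, 18.1 and 13.2 CPM, with a log2 fold change of 1.27 ± 0.16 (edgeR adjusted p = 7.1e-10). Cox6b2 (chr7:4751792-4753094, minus strand) was at 14.3, 15.8, 12 and 13.6 CPM and at most at 11.3 CPM in any other slice, a log2 fold change of 1.20 ± 0.16 (edgeR adjusted p = 3.4e-09), which was not called among spots at least 3 steps from muscle (adjusted p = 0.0932). It took 2.89% of Cox6b UMIs in hair matrix and 1.53% in adipose spots, the next. Ndufa4l2 (-2.91) and Cox4i2 (-1.53) were the 2 genes that were lower.

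Interfollicular epidermis had the opposite pattern for the nuclear-encoded genes. There 55 of 92 were lower and 2 higher, against 17.3% and 21.3% of all genes, with a median log2 fold change of -0.33 against -0.03 for all genes. Lower were 20 of 36 genes of complex I, 2 of 4 of complex II, 8 of 9 of complex III, 13 of 18 of complex IV and 11 of 17 of complex V. Atp5md, a small membrane subunit of ATP synthase, was at 224, 208, 223 and 206 CPM, below every slice elsewhere (309 CPM or more), with a log2 fold change of -1.09 ± 0.10 (edgeR adjusted p = 5.5e-13). Of the 13 mtDNA-encoded subunits 6 were higher and 0 lower, with a median of 0.28 and 9 of 13 citric acid cycle genes were lower. Cox4i2 was lower by a log2 fold change of -0.89 (edgeR adjusted p = 0.0369), a call lost in 5 alternatives.

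After Cox6a2 and Cox8b, Ndufa4l2 had the widest range across the skin. It was at 358, 385, 314 and 317 CPM in epidermis, at a mean of 170 CPM in dermal fibroblast spots, 113 CPM in sebaceous gland and 82.0 CPM in mural cell spots, and at 5.81 to 6.86 CPM in inner root sheath, hair matrix and hair shaft. The epidermal slices stood above all others, and the lowest mural cell slice, 35.7 CPM in slice 3, was far from the other 3 (88.3 to 108 CPM). The log2 fold change in epidermis was 3.76 ± 0.11 (edgeR adjusted p = 8.3e-33). In dermal fibroblast spots it was 2.57 and in sebaceous gland 1.90, both called. Of the UMIs of Ndufa4 and Ndufa4l2 together, Ndufa4l2 took 28.1%, 32.2%, 29.1% and 28.4% in epidermis and 20.6% in fibroblast spots, a difference of 8.82 ± 2.98 percentage points in the same direction in 4 of 4 slices (exact sign-flip permutation p = 0.13). The epidermal keratin Krt10, a marker that also served to place the epidermal spots, was at 4677 CPM in epidermis. It was at 735 CPM in fibroblast spots, 724 CPM in sebaceous gland and 457 CPM in mural cell spots. The part of epidermal RNA in the Ndufa4l2 levels of these compartments was not tested. Ndufa4 itself was the only other gene of the set higher in epidermis, by 0.36 ± 0.11 (edgeR adjusted p = 0.0080), a call lost without slice 3 (adjusted p = 0.0509).

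**Figure D5:**
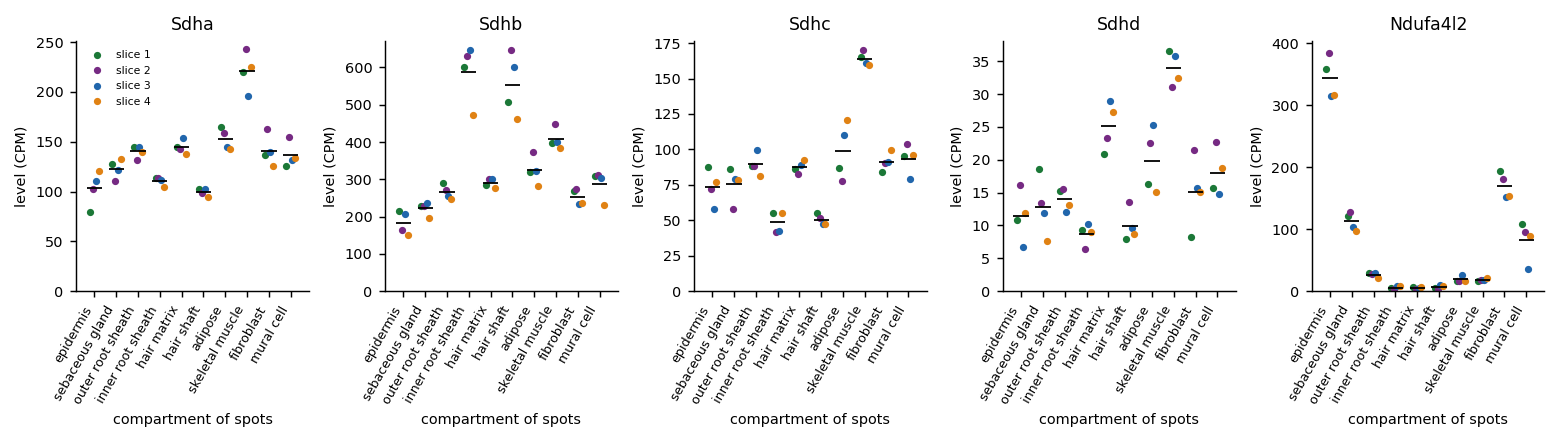
Level in CPM of the 4 complex II genes and of Ndufa4l2, by compartment, with a point per slice and a black line at the mean. Sdhb is highest in inner root sheath and hair shaft (means 587 and 554 CPM), where Sdhc and Sdhd are low, and Ndufa4l2 is highest in epidermis (343 CPM).

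In the inner root sheath and the hair shaft, the inner keratinizing layers of the follicle, the subunits of complex II parted. Sdhb (chr4:140961203-140979193, plus strand) was at 600, 631, 646 and 473 CPM in inner root sheath and at 506, 647, 602 and 461 CPM in hair shaft, above every muscle slice (383 to 448 CPM). The log2 fold changes were 1.14 ± 0.09 (edgeR adjusted p = 9.0e-16) and 1.21 ± 0.09 (edgeR adjusted p = 7.3e-17). In inner root sheath Sdhc and Sdhd were lower (-0.65 and -0.70) and Sdha, the flavoprotein, was not called (-0.12). In hair shaft Sdhc was lower (-0.40), and Sdhd (-0.31) and Sdha (-0.12) were not called. Sdhb lies beside the peptidylarginine deiminase genes. Of these Padi3, on the opposite strand, was at 1696 and 1568 CPM in inner root sheath and hair shaft against 324 to 598 CPM elsewhere. The nearest, Padi2 (chr4:140906344-140952586), on the same strand as Sdhb, was at 0.37 to 7.26 CPM, highest in muscle. The part of reads from these neighbors in the Sdhb level was not tested.

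Cox4i2 (chr2:152754173-152765037, plus strand) was also highest in these layers, at 13.4, 15.2, 21.6 and 12.7 CPM in inner root sheath and 17.2, 17.0, 15.6 and 14.8 CPM in hair shaft. Its log2 fold changes were 1.41 ± 0.19 and 1.65 ± 0.19 (edgeR adjusted p = 1.1e-08 and 5.4e-10). Of Cox4i UMIs it took 2.26% and 2.54%, which differed by 0.279 ± 0.647 percentage points (exact sign-flip permutation p = 0.5). Over the set, 16 genes were higher and 13 lower in inner root sheath (22.9% and 27.6% of all genes) and 8 higher and 19 lower in hair shaft (20.6% and 22.2%). These counts moved with the processing. In inner root sheath the 16 became 10 without slice 1, 8 without slice 2, 27 with the slice as a block (20 lower) and 7 with library size alone as the scale (23 lower). In hair shaft the 19 became 12 without slice 2, 10 without slice 3 and 11 at least 3 steps from muscle, and the block gave 15 higher and 28 lower. With library size alone 3 were higher and 66 lower there, while the median of all genes was -0.34. Dividing each slice into 3 strips by position, tried after seeing the data, gave 37 higher and 10 lower in inner root sheath and 23 higher and 13 lower in hair shaft.

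In adipose spots 19 genes were higher and 1 lower, against 10.6% and 9.27% of all genes, and the median log2 fold change was 0.13. The count was 9 without slice 1, 2 or 3, 41 with the slice as a block and 2 among spots at least 3 steps from muscle. Cox8b, at 70.5, 84.2, 97.5 and 75.6 CPM, had the largest log2 fold change, 1.72 ± 0.14 (edgeR adjusted p = 2.2e-14), and it was still called at least 3 steps from muscle, at 1.33 (adjusted p = 1.6e-06). Cox6a2 had 1.66 ± 0.13 (edgeR adjusted p = 1.1e-14), but 0.18 at least 3 steps from muscle (adjusted p = 0.789). Cox8b and Cox7a1 are known from brown fat too. The brown fat marker Ucp1 was at most at 0.475 CPM on average in any compartment, and the slow fiber myosin Myh7 at most at 0.231 CPM. The list of 4 brown adipocyte markers, which shares Cidea and Elovl3 with the sebaceous gland list, summed to 47.0 CPM in adipose spots (38.7 to 51.5) and 595 CPM in sebaceous gland (482 to 672). The list of 6 markers taken for slow fibers (Myh7, Tnni1, Tnnc1, Tnnt1, Myl3 and Myh2) summed to 83.9 CPM in adipose spots (60.1 to 119). In muscle it summed to 333 CPM (291 to 390). Myh2 is a myosin of fast oxidative fibers, so the sum does not stand for slow fibers alone. The part of either cell type in these results was not tested. Ndufa4l2 was lower in adipose spots (-1.06).

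In mural cell spots 4 genes were higher and 0 lower, against 11.8% and 2.39% of all genes: Cox6a2 (1.86), Cox8b (1.65), Cox7a1 and Ndufa4l2. At least 3 steps from muscle the differences of Cox6a2 and Cox8b were 0.13 and 0.02 and not called (edgeR adjusted p = 0.821 and 0.983), and 1 gene was higher and 1 lower there. With the slice as a block 6 were higher and 2 lower. In dermal fibroblast spots 4 were higher, the same 4 genes, and 9 lower, against 18.0% and 11.1% of all genes. There Atp5md (-0.45) and Sdhb (-0.35) were lower, Sdhb losing its call without slice 3 (adjusted p = 0.0907), and Cox8b (1.36) was at 0.00 at least 3 steps from muscle, where 1 gene was higher. In sebaceous gland 4 were higher and 12 lower, against 18.1% and 12.3%. Apart from Ndufa4l2 these included Cox4i1 (0.30), the widespread subunit 4, and among the lower ones Ndufaf6 (-1.36, not called with the top 5% of spots) and Cox7a1 (-1.12, not called at least 3 steps from muscle). In outer root sheath 3 were higher and 10 lower, against 15.1% and 13.3%. The higher ones were Cox7a2l (0.41), the flavoprotein partner Ndufv2 (0.25) and Atp5g3, while Cox6a2 (-1.76) and Cox8b (-1.49) were the lowest. At least 3 steps from muscle Cox6a2 was at -0.79 and Cox8b at -0.66, both called (edgeR adjusted p = 0.0195 and 0.0316). With the slice as a block, genes lower in fibroblast spots numbered 26, in sebaceous gland 24 and in outer root sheath 16, against 14.3%, 14.4% and 16.0% of all genes under the block. Those higher were 5, 12 and 8, against 19.2%, 19.3% and 16.7%. The 9 lower in fibroblast spots became 4 without slice 3 and 6 without slice 2. In sebaceous gland the 12 lower became 7 without slice 2 and 2 at least 3 steps from muscle, and the 4 higher became 8 without slice 1 and 2 without slice 3. In outer root sheath the 10 lower became 6 without slice 2 and 4 at least 3 steps from muscle.

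Across the 10 compartments each gene was set against the median pattern of the set. That median was taken over the same genes, so high correlations are partly built in. The level of 48 of the 92 genes correlated with it at a Pearson r above 0.9 (n = 10 compartments, which share slices and depth, given as a description), and for 8 genes r was below 0.5. These 8 were Cox4i2 (-0.46), Ndufa4l2 (-0.32), Cox7a2l (0.01), Cox6a1 (0.04), Sdhb (0.13), Atp5d (0.35), Cox6b2 (0.39) and Ndufaf3 (0.42), of which 5 belong to complex IV. Muscle was the highest compartment for 75 genes and hair matrix for 11, and hair matrix was the highest non-muscle compartment for 62. The share of all genes that were highest in these compartments was not counted. The median gene differed 2.26-fold between its highest and lowest compartment, against 73.8-fold for Cox6a2 and 59.2-fold for Ndufa4l2.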

How the data were processed

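Visium libraries of 4 slices of dorsal skin were analyzed. The authors made the deposited files with Space Ranger 2.0.1 on the mm10 genome. The deposited values are counts of UMIs per gene and spot, not normalized, for spots over tissue. The authors left the fourth section out of their own analysis because its shape was distorted. Which deposited slice, or part of one, holds that section is not given in the sources used here, and all 4 slices were used. Columns of coordinates served only for distance.

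Spots with at least 250 detected genes were kept (6411 of 6420). A spot was given to the compartment whose score, the mean log-scaled level of 6 to 10 markers, was in the top 10% of its slice, and to the best ranked where several were. Spots of no list (1848) were not used. The compartment was scored without any gene of the set. Some other genes reported, such as Acta1, Krt10, Cidea and Elovl3, were among the markers. Slices shared 963 to 1403 spot barcodes per pair, as slides of one barcode layout do. UMIs were summed per slice and compartment (40 sums). Genes passing filterByExpr (11608) were tested with edgeR 4.0.16 in R 4.3.3 (TMM, glmQLFit, glmQLFTest), with Benjamini-Hochberg adjustment over all of them and calls at an adjusted p below 0.05. Muscle was set against the mean of the other 9 compartments, and each other compartment against the mean of the other 8 non-muscle ones. Log2 fold changes are on this TMM scale and CPM values use the total UMIs. Shares and ratios were tested by an exact two-sided sign-flip permutation test over slices. The edgeR test was checked on simulated counts for the muscle comparison, with 200 of 11003 genes changed by a log2 of 1. Of these 87.0% were recovered, and 3.87% of calls were false. The simulated sums had no shared slice effect and no differences among the other 9 compartments, unlike the data. The 3.87% therefore does not give the error rate of the calls reported. P-values measure only the spread between slices of the same mice.

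Compartments of one slice come from the same library, so the slice number pairs the sums. Deviations of sums of the same slice correlated at 0.174, 0.0963, 0.0613 and 0.0995 on average for slices 1 to 4, with a lowest value of 0.0318. The fit with the slice as a block is given where it changed the call of a named gene or moved the count of a non-muscle comparison by over 1.5 times. A count under another setting that stands without the share of all genes does not show a change particular to the set.

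The genes, the marker and pathway lists and the tests were chosen with earlier results of these data known. Named genes were the tissue isoforms and their common partners, the largest and lowest change of each complex in muscle, the 2 largest and 2 lowest called changes elsewhere, and genes not detected. Alternatives were other cuts of the marker score, clusters of spots made with scanpy 1.11.5, spots of at least 1000 genes, each slice left out, DESeq2 1.42.0, other scales and filters, and spots thinned to 5500 UMIs. Distance from muscle and 3 strips by position were added after seeing the data. Counting by 3' reads can lose reads shared with processed pseudogenes of these genes, to an extent that can differ between genes. Isoform shares, complex shares and mtDNA-encoded to nuclear-encoded ratios set genes against each other. The part of this loss in their sizes was not tested. Ndufb1-ps was left out by name. Motifs were searched on both strands of 250 bases before each start. The values of 1 gene of the pathway lists are not reported here.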

Additional observations from a re-analysis of the deposited data

Results flagged for a closer look

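In 76 groups of 4 slices, the highest or lowest slice was tested for distance from the other 3 (Dixon's ratio), and 5 groups passed, where chance flags about 1 in 20. The log2 ratio of muscle to the other compartments for complex III was 0.72 in slice 4 and 0.60 in the others. Ndufaf6 was at 18.1 CPM in hair matrix of slice 3, against 12.9 to 13.2 CPM in the others. Cox4i2 was at 1.62 CPM in hair matrix of slice 1, against 3.02 to 3.22 CPM. Ndufa4l2 was at 25.9 CPM in adipose spots of slice 3, against 15.8 to 17.3 CPM. Cox6b1 was at 612 CPM in muscle of slice 3, against 676 to 687 CPM.

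Ndufb1-ps, which the naming rule left out because of its ending, held 31297 UMIs and was found in 92.4% of spots, so its signal lies outside the set reported. Its symbol marks a pseudogene, while the annotation used (GENCODE M21) gives its type as a bidirectional promoter lncRNA. It was highest in muscle, at a mean of 484 CPM, and lowest in epidermis, at 206 CPM.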

How the results depend on the processing

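For 14 main results, up to 15 other settings gave 165 values labeled as kept and 5 counts that moved by more than 1.5 times. A count was kept if it moved by no more than 1.5 times. A share or ratio was kept if its direction held, whatever its size. The number of genes lower in muscle, 2, became 1 without slice 2, 4 with library size alone and 4 among spots at least 3 steps from muscle spots, an alternative chosen after seeing the data. Calls higher summed over the 9 non-muscle comparisons, 129, became 77 in those spots, where hair matrix kept 11 to 26 spots per slice. Calls lower, 121, became 185 with the slice as a replicate block, and the cause was not tested. The block changed the call of no named gene other than Cox7a2l. With each slice left out, genes higher in muscle numbered 82 to 85 and lower 1 to 2. Non-muscle calls were 103 to 129 higher and 94 to 112 lower. The log2 ratios in muscle were 0.71 to 0.75 for complex I, 0.56 to 0.61 for complex II, 0.60 to 0.64 for complex III, 0.72 to 0.78 for complex IV, 0.60 to 0.64 for complex V and 0.29 to 0.36 for mtDNA-encoded over nuclear-encoded. The isoform shares were 71.4% to 73.1% for Cox6a2, 37.4% to 40.1% for Cox7a1, 55.3% to 61.2% for Cox8b and 28.5% to 29.9% for Ndufa4l2. Of 826 values for 56 named results, 799 kept their call, 20 lost it, 7 gained it and 0 reversed. Library size alone moved the median of all genes in muscle to -0.11, against which the median of the set was 0.70. Clusters of spots could be named for 6 of the 10 compartments only. A sign-flip p of 0.13 cannot change side of a threshold, so the ranges stand in for it. The means of Cox4i2, Cox6b2 and Ndufaf6 were under 20 CPM in every compartment. These levels, and those of other genes as low or lower, are the least precise given.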
